A study of Mus musculus with 4 samples.

Results

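RNA-seq of resting splenic B cells was compared between ΔIRIS and ΔleftPAL mice, 1 library per genotype, over all 41342 named genes of the table. The 2 libraries are those labelled as freshly isolated cells, of 4 libraries in all. A log2 ratio below is always ΔIRIS over ΔleftPAL. The 3' regulatory region (3'RR) of the IgH locus holds a palindrome, in which inverted repeated intervening sequences (IRIS) lie between enhancers. ΔleftPAL mice lack the genomic fragment that runs from hs3a through IRIS to hs1,2. ΔIRIS mice lack the repeats between these enhancers but hold both of them, hs3a in flipped orientation. Both lines are given as strain 129 and were made from edited E14 ES cells, with a cross to C57BL/6 and cre mice on the way, so the share of each background is not known; the repeats on the left side of the palindrome are missing in both lines, which differ in that hs3a and hs1,2 are absent in ΔleftPAL cells and present, with hs3a flipped, in ΔIRIS cells. B cells were purified from spleens by gradient separation and removal of CD43+ cells, and were not treated before lysis. The other 2 libraries come from the same genotypes after 2 days with 5 μg per ml LPS and are used here only beside the resting values.

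Each library holds B cells pooled over mice, 4 animals by its label although the pooling is described differently in the study's methods, so the spread between mice was not measured and genotype and pool cannot be told apart. Libraries of wt cells were not analysed here, so a lower value in one genotype cannot be told from a higher value in the other. The gene counts summed to 23615496 in ΔleftPAL and 28707002 in ΔIRIS cells, where 3 counts correspond to 0.123 and 0.103 CPM, the counts scaled by TMM effective library sizes. Intervals are exact 95% Clopper-Pearson intervals of the read share; they hold counting error alone, and reads copied by PCR are not separate molecules. Single genes are given as plain ratios of CPM, whereas 2-fold calls and list medians use log2(CPM + 0.5), which draws low genes towards 0. In bulk RNA, fewer cells of a type and less RNA per cell cannot be told apart.

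The 3'RR enhancers drive transcription and class switching of the heavy chain locus late in B cell life. A resting follicular or marginal zone B cell is kept quiescent by factors such as Foxo1 and Klf2. Type I interferon acts through the kinase-coupled receptor and the factors Stat2 and Irf9 on interferon response elements, and raises antiviral genes. Immediate early genes such as Fos, Egr1 and the Nr4a orphan nuclear receptors are transcribed within minutes of antigen, calcium, cyclic AMP or stress signals, without new protein synthesis.

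A mean of 50 or more reads in the resting pair was reached by 11329 genes. Of these, 231 (2.04%) were at least 2-fold higher and 122 (1.08%) at least 2-fold lower in ΔIRIS than in ΔleftPAL cells. Of the same genes, 21 were at least 4-fold higher and 11 at least 4-fold lower. The central 90% of genes lay between -0.55 and 0.70, with a median of 0.00. With kallisto estimated counts the split was 207 higher and 120 lower. Counted by transcript abundance (kallisto TPM), without TMM scaling and over 10810 genes, it was 161 higher and 131 lower. The threshold cut through a continuous range: Noxred1 (-1.003) and Rgs13 (-1.008) lay just inside it on the lower side and Nxpe3 (-0.9992) just outside, while on the higher side Cmbl (1.001) and Clec9a (1.008) were inside and Ermap (0.9969) outside.

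**Figure D1:**
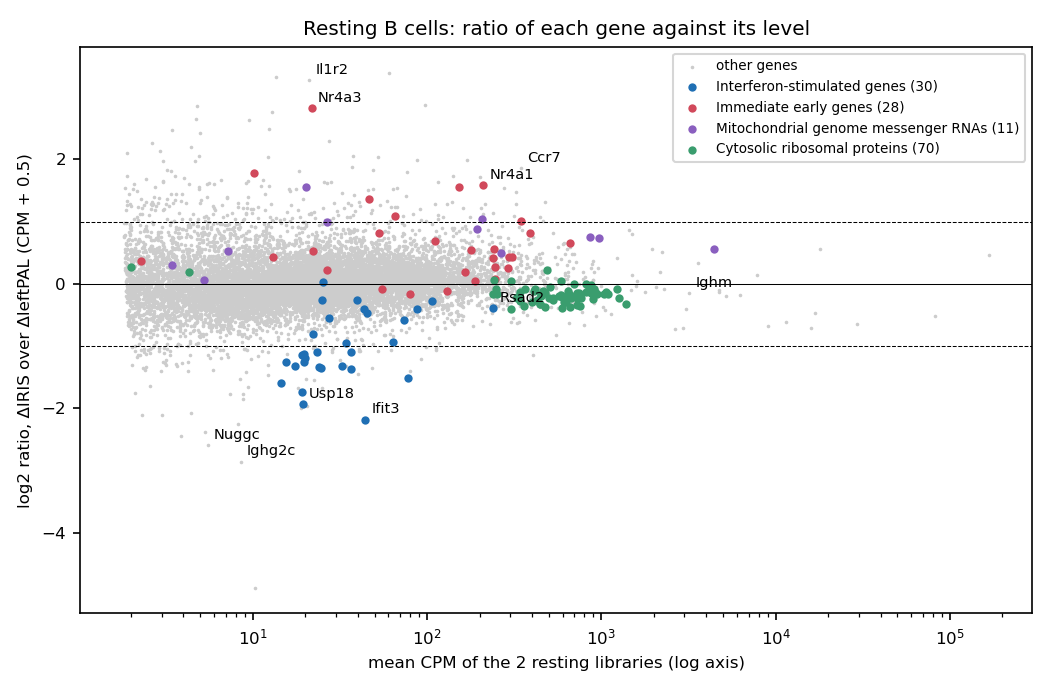
Log2 ratio of ΔIRIS over ΔleftPAL (vertical axis, CPM + 0.5) against the mean CPM of the 2 resting libraries (log axis) for 11329 genes, with 4 gene lists in colour and dashed lines at 2-fold. Interferon-stimulated genes lie below 0 except Gbp2, and the immediate early genes that are furthest apart, led by Nr4a3, lie above.

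On the lower side, the list with the most 2-fold genes was that of interferon-stimulated genes. All 30 listed genes were measured, 17 were at least 2-fold lower in ΔIRIS cells, beside 1.08% of all genes tested, and none was 2-fold higher. In 29 of 30 the ratio was under 0, and the median was -1.12. Summed over the list, the level was 1649 CPM in ΔleftPAL and 952 CPM in ΔIRIS cells. Neutrophil markers, at 23.4 and 10.4 CPM in sum, were lower in the same library, and their part in this difference was not tested.

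The promoters of 3 members and of 2 immediate early genes are shown because these 2 lists held the most genes 2-fold apart. They are the 250 bases upstream of the RefSeq start (GRCm38.p6, the C57BL/6J reference, not the strain 129), 5' to 3', with the letters GAAANNGAA on either strand in capitals for Ifit3, Ifit1 and Oas1a, and TGACG on either strand in capitals for the Nr4a genes. Matches can overlap, as they do in Ifit1 and Oas1a.
Ifit3, chr19:34583279-34583528, strand plus: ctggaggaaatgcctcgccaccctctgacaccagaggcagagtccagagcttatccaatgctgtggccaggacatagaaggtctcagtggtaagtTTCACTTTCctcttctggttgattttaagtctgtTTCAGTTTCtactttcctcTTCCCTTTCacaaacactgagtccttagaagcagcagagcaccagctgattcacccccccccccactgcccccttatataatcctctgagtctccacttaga
Ifit1, chr19:34640639-34640888, strand plus: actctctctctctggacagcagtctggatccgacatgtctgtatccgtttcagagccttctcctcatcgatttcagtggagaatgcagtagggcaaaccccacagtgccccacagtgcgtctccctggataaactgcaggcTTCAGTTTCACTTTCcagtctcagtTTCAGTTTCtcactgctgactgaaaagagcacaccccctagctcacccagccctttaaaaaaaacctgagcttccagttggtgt
Oas1a, chr5:120907526-120907775, strand minus: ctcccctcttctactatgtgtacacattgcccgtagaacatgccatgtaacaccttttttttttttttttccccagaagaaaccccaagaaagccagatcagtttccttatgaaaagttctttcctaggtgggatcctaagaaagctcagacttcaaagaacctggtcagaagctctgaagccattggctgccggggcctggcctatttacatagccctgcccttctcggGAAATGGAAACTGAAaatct
Nr4a1, chr15:101266596-101266845, strand plus: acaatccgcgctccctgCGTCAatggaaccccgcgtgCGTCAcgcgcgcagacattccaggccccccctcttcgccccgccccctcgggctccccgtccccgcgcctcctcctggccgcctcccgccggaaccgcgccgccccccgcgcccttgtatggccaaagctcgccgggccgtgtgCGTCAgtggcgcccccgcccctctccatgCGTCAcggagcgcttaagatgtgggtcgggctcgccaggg
Nr4a3, chr4:48045055-48045304, strand plus: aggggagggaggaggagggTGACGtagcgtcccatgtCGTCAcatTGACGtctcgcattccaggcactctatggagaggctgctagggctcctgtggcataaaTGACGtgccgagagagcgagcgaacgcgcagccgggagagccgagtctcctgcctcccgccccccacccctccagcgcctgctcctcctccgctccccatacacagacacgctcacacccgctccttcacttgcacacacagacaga

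GAAANNGAA is the core of interferon response elements. It stood in 12 of the 23 interferon-stimulated genes that had a promoter entry (52.2%), beside 8.18% of 27025 genes in the table. It was found 3 times in Ifit3, 3 times in Ifit1 and 2 times in Oas1a. The letters did not follow the size of the ratio. They were absent from 2-fold lower members such as Irf7, Ifit2, Oasl1 and Xaf1. Members under 2-fold apart, such as Gbp2, Rsad2, Ifih1 and Stat2, held them. The half-site of cyclic AMP response elements, TGACG, stood in 14 of 22 immediate early genes with an entry (63.6%), beside 19.8% of all genes, and 4 times each in Nr4a1 and Nr4a3. The full palindrome TGACGTCA stood in 3 of these 22 genes. The κB-type letters GGGNNTTCC were in 2 of 23 interferon-stimulated and 2 of 22 immediate early promoters, against 5.61% of all genes. These matches describe the letters of a short window and were not tested as sites.

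Ifit3, which binds viral RNA with its Ifit partners, had 1782 reads in ΔleftPAL and 456 in ΔIRIS cells, or 73.0 and 15.7 CPM. Its log2 ratio was -2.22 (interval -2.37 to -2.07), and it stayed lower after LPS, with 322 and 121 reads (-1.53). It lies at chr19:34583531-34588731 of mm10. The model Gm14446, next to it at chr19:34592888-34601968, had 804 and 235 reads (-2.03). The model I830012O16Rik, at chr19:34607970-34613401, had 345 and 103 reads (-1.995). These 3 are related genes of the Ifit cluster, and reads that fit several places were counted at the primary one, so they may have been split between them.

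Feedback and regulatory members followed. Usp18, the protease that removes Isg15 and restrains the interferon receptor, had 757 and 224 reads, 31.0 and 7.71 CPM (-2.01, interval -2.23 to -1.79). Irf7, the factor that amplifies interferon production, had 2830 and 1166 reads, 116 and 40.1 CPM (-1.53, interval -1.63 to -1.43). The receptor-proximal factors were closer, with Stat2 at -0.48 and Irf9 at -0.41.

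Among the antiviral effectors, Mx1, a GTPase that traps viral particles, had 1300 and 590 reads (-1.39). Oas2 had 873 and 398 reads (-1.38) and Oas1a 847 and 389 (-1.37); both make the oligoadenylate that activates RNase L. Isg15, the ubiquitin-like modifier, had 788 and 429 reads (-1.13; -0.96 with kallisto estimated counts). The RNA sensors were little apart, Ddx58 at -0.28 and Ifih1 at -0.27, and so was the most abundant effector of the list, Rsad2, with 6654 and 6030 reads (-0.39). Gbp2 was the member that was not lower (615 and 746 reads, 0.03, interval -0.13 to 0.18).

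Further families, chosen after their values were seen, were mostly lower too. Of 7 Schlafen genes, 4 were at least 2-fold lower, beside 1.08% of all genes, and the median was -1.04; Slfn1 had 228 and 40 reads (-2.76) and Slfn4 99 and 16 (-2.88; -1.42 on TPM + 0.5 against -2.12 on CPM + 0.5), while Slfn3 was higher (67 and 111 reads, 0.48). Of 17 measured interferon-inducible GTPases, 6 were 2-fold lower, beside 1.08% of all genes, and 15 were under 0. Gbp2, Gbp3, Irgm1 and Ifi47 are also members of the interferon-stimulated list, and Ifi47 is among the 6. Gbp6 had 739 and 295 reads (-1.58) and Tgtp2 1196 and 563 (-1.34). Ly6a, the surface antigen Sca-1, had 2836 and 1263 reads (-1.42), and Ifi27l2a had 3730 and 2104 (-1.08). In the LPS pair the interferon list was not apart as a whole: its median was -0.05 and 2 of 30 genes, Ifit3 and Xaf1, were 2-fold lower, beside 1.1% of the 10294 genes at the minimum in both pairs.

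**Figure D2:**
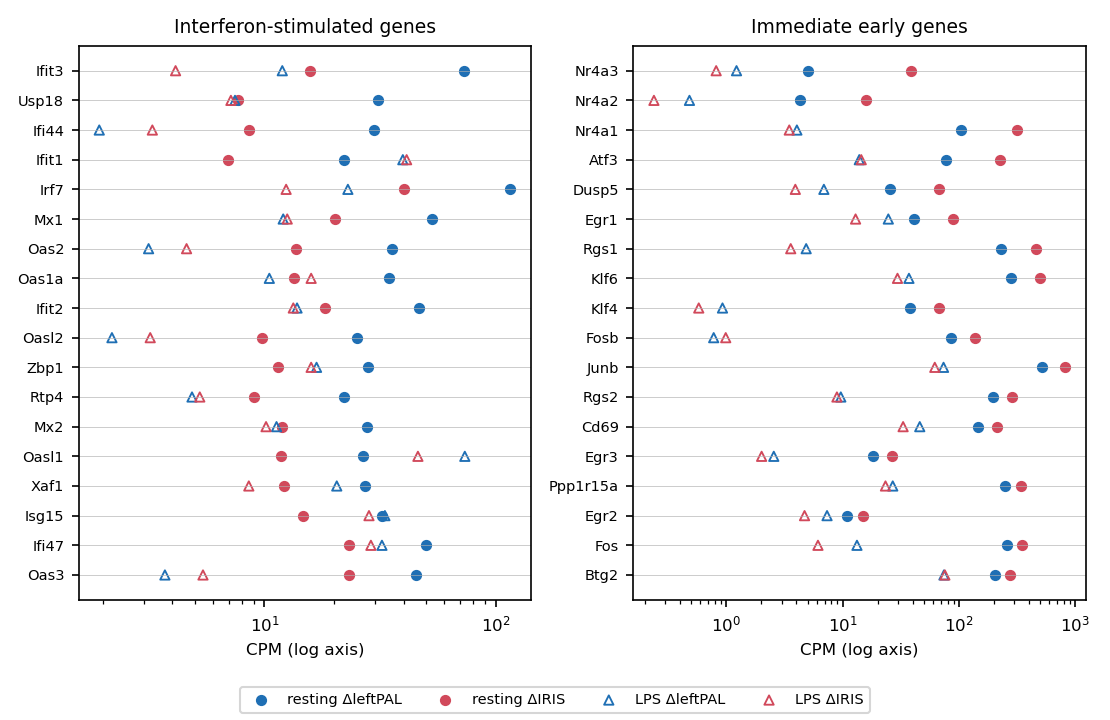
CPM (log axis) of 18 interferon-stimulated and 18 immediate early genes, those furthest apart in the resting pair, in each of the 4 libraries: filled circles are resting and open triangles LPS libraries, blue ΔleftPAL and red ΔIRIS. At rest, ΔleftPAL lies above ΔIRIS for every interferon-stimulated gene plotted and below it for every immediate early gene plotted.

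Germinal centre genes were next. Of 14 measured, 4 were at least 2-fold lower in ΔIRIS cells and 1 higher, beside 1.08% and 2.04% of all genes, with a median of -0.39. The summed level went the other way, 490 and 574 CPM, since most of it was Gna13, a G protein subunit (153 and 218 CPM), Il21r (120 and 134) and Tifa. T cell markers were lower together with the lower members, at 83.0 and 61.6 CPM in sum, and their part was not tested. Nuggc, a nuclear GTPase of germinal centre B cells, had 240 and 35 reads, 9.83 and 1.20 CPM (-3.03, interval -3.58 to -2.51). Mybl1, a factor of cycling germinal centre cells, had 338 and 73 reads (-2.46, interval -2.85 to -2.09). S1pr2, the receptor that confines cells to the germinal centre, had 181 and 40 reads (-2.43, interval -2.96 to -1.93).

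The other members were mixed. Rgs13, a regulator of chemokine signalling, had 205 and 114 reads (-1.10), Fas 114 and 78 (-0.80) and Gcsam 120 and 97 (-0.56). Bcl6, the factor that sets the germinal centre programme, had 1034 and 1003 reads (-0.30). Tifa, an adaptor of NF-κB signalling, was higher, with 770 and 2223 reads (1.28).

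Of 5 measured constant genes of the heavy chain, 3 were at least 2-fold lower in ΔIRIS cells, all of switched classes, beside 1.08% of all genes. Ighg2c, on minus strand chr12:113285325-113288930, had 375 and 49 reads, 15.4 and 1.69 CPM (-3.19, interval -3.65 to -2.75). The reference genome is of another strain than the edited ES cells. The paper assigns the edited heavy chain loci to allele a and assays IgG2a. Reads counted at Ighg2c may therefore come from a related gene of that allele, and their origin was not tested. Igha, at chr12:113258768-113260236 and nearest to the 3'RR, had 748 and 213 reads (-2.06), and Ighg2b 685 and 246 (-1.73). Ighg1 was low in both, with 64 and 26 reads. Ighm, the constant gene of IgM, was close at 3355 and 3025 CPM (-0.15), and Ighg3 was higher in ΔIRIS cells, with 653 and 982 reads (0.34, interval 0.19 to 0.48). Near the locus, Tmem121 at chr12:113185903-113189520 had 116 and 47 reads (-1.55). It was the only one at least 2-fold apart of 12 measured genes listed around the heavy chain locus, and their median was -0.12. That list is not limited to the side of the 3'RR, since it also holds genes such as Adam6a and Vipr2.

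Variable segments differed little as families. None of 65 measured Ighv segments was 2-fold apart, with a median of -0.08. Of 71 Igkv segments, 3 were 2-fold lower, beside 1.08% of all genes, with a median of -0.10: Igkv3-2 had 443 and 182 reads (-1.53), Igkv4-70 141 and 61 (-1.46) and Igkv3-4 378 and 204 (-1.14). These 3 were also lower in the LPS pair, where Igkv3-2 had 1262 and 274 reads. The kappa constant gene Igkc was at 1196 and 896 CPM (-0.42).

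**Figure D3:**
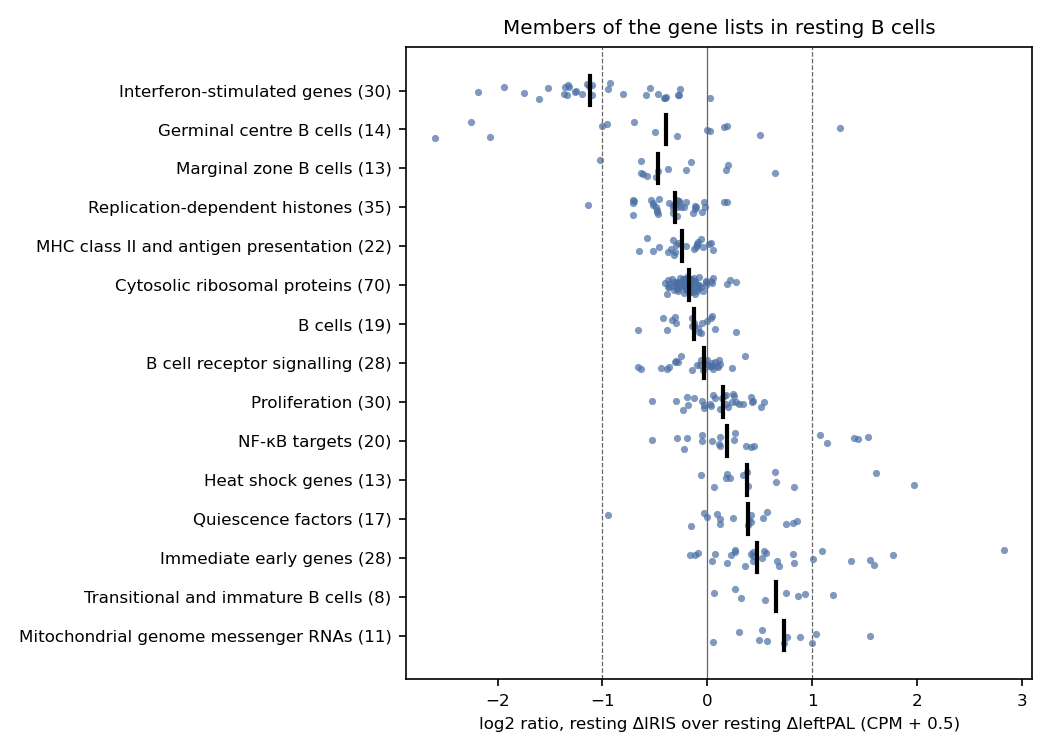
Log2 ratio of ΔIRIS over ΔleftPAL (horizontal axis, CPM + 0.5) of each measured member of 15 gene lists in resting B cells, with the number of members in brackets, a black bar at each median and dashed lines at 2-fold. The medians run from -1.12 for interferon-stimulated genes to 0.74 for mitochondrial genome messenger RNAs.

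On the higher side, immediate early genes were nearly all higher, by unequal amounts. All 28 were measured, 7 were at least 2-fold higher in ΔIRIS cells, beside 2.04% of all genes, none was 2-fold lower, and 25 were above 0, with a median of 0.48. Their summed level was 3862 CPM in ΔleftPAL and 5733 CPM in ΔIRIS cells. In the LPS pair the sums were 719 and 606 CPM, and the median was -0.32. Macrophage, dendritic cell and platelet markers, described further on, were also higher in resting ΔIRIS cells, and their part in this difference was not tested.

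The 3 Nr4a genes led the list. Nr4a3 had 122 reads in ΔleftPAL and 1119 in ΔIRIS cells, 4.99 and 38.5 CPM (2.95, interval 2.68 to 3.23). Nr4a2 had 105 and 463 reads (1.89, interval 1.58 to 2.21), and Nr4a1, which follows antigen receptor signals, had 2558 and 9186 reads, 105 and 316 CPM (1.59, interval 1.53 to 1.66). On TPM + 0.5 the ratio of Nr4a3 was 1.71, against 2.83 on CPM + 0.5, and that of Nr4a2 0.92, under 2-fold, against 1.77.

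Others of the list were Atf3, a stress-response factor, with 1879 and 6596 reads (1.56), Dusp5, a phosphatase of ERK, with 624 and 1944 (1.39), and Egr1 with 1013 and 2586 (1.10). Rgs1, which dampens chemokine receptors, had 5600 and 13443 reads (1.012). The AP-1 genes were less apart: Junb was at 0.66, Fosb at 0.69, Fos at 0.43 (6345 and 10201 reads) and Jun at 0.27. Myc (2065 and 2193 reads, -0.16), Dusp2 (-0.11) and Ier2 (-0.09) were not higher.

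Outside the list, the genes furthest apart on the higher side included receptors, enzymes and factors. Il1r2, the decoy receptor of interleukin 1, had 86 and 1119 reads, 3.52 and 38.5 CPM (3.45, interval 3.13 to 3.78). On TPM + 0.5 its ratio was 1.62, against 3.28 on CPM + 0.5. Ptgs2, the inducible cyclooxygenase, had 83 and 622 reads (2.65), and Vegfa, the vascular growth factor, 30 and 254 (2.83). Maff, a small Maf factor, had 219 and 1341 reads (2.36), and Fosl2, an AP-1 subunit, 110 and 583 (2.15).

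The remaining genes taken by size have varied roles. Gfi1, a zinc finger repressor, had 350 and 1780 reads (2.10, interval 1.93 to 2.26), and Cdkn1a, the p21 inhibitor of the cell cycle, 10 and 99 (3.06, interval 2.12 to 4.16). Epha2, an ephrin receptor, had 71 and 661 reads (2.97) and Gla, the lysosomal α-galactosidase, 496 and 2461 (2.06). On TPM + 0.5 the ratio was 0.94 for Epha2 and 0.69 for Gla, under 2-fold in both. Rnf125, a ubiquitin ligase, had 19 and 254 reads (3.49), and the small nucleolar RNA Snord49b 39 and 238 (2.36).

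Chemokine and homing receptors were split, with 3 of 19 at least 2-fold higher and 2 lower, beside 2.04% and 1.08% of all genes. Ccr7, which brings B cells to the T zone border, had 3639 and 15720 reads, 149 and 541 CPM (1.86, interval 1.81 to 1.91). Cxcr4, the receptor of Cxcl12, had 4171 and 13811 reads (1.48), and P2ry10 4918 and 12516 (1.10). Cxcr5, the receptor for follicles, was lower, with 4376 and 3466 reads (-0.59), as were Ccr6 (844 and 586, -0.78) and S1pr3 (954 and 550, -1.05). S1pr1, the receptor for egress, was at 0.18.

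NF-κB targets gave 5 of 20 genes at least 2-fold higher, beside 2.04% of all genes, and none lower, with a median of 0.19. Tnfaip3, the deubiquitinase A20, had 3464 and 11994 reads (1.54), Cd83 3647 and 9611 (1.15) and Rel 1942 and 4879 (1.08). The chemokines Ccl3 (149 and 505 reads, 1.51) and Ccl4 (90 and 307, 1.52) were also higher. Nfkbia was at 0.44 and Nfkb1 at 0.11, and Tnf was lower, with 272 and 262 reads (-0.31).

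Stress and quiescence genes were mostly above 0. Of 13 measured heat shock genes, 12 were above 0 and 2 at least 2-fold, beside 2.04% of all genes: Hspa1a with 66 and 270 reads (1.78) and Hspa1b with 39 and 225 (2.28), near-identical copies whose reads cannot be assigned apart. Of 17 quiescence factors 14 were above 0, with a median of 0.39. Foxo1 had 2447 and 5291 reads (0.86), while Klf2 was at -0.15 and Slfn2 at -0.95.

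Transcripts of the mitochondrial genome were more abundant in ΔIRIS cells. All 11 measured messenger RNAs were above 0, with a median of 0.74, and 2 were at least 2-fold higher, beside 2.04% of all genes. mt-Nd1 had 17704 and 35104 reads (0.74), mt-Cytb 15703 and 31611 (0.76) and mt-Nd6 244 and 883 (1.60). The 2 mitochondrial ribosomal RNAs took 16.02% of counts in ΔleftPAL and 21.8% in ΔIRIS cells, against 16.6% and 16.8% after LPS. Ribosomal RNA was depleted before sequencing, so these shares may also depend on the depletion of each library, which was not tested. Nuclear genes of oxidative phosphorylation did not share the shift, with a median of -0.06 over 50 genes and none 2-fold apart.

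Cytosolic ribosomal protein genes were slightly lower in 64 of 70, with a median of -0.17, and replication-dependent histones in 33 of 35, with a median of -0.31. Of the histones 1 was at least 2-fold lower, beside 1.08% of all genes. Proliferation genes were above 0 in 21 of 30, with a median of 0.15, and none was 2-fold apart. Glycolysis had a median of -0.11 (13 of 17 under 0), cholesterol synthesis -0.14 (12 of 20) and antigen presentation -0.24 (19 of 22). No gene of these lists was 2-fold apart. The median of all genes lay at -0.03 among the shortest genes and 0.04 among the longest, by quartile of length.

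The identity of the cells was checked on markers. All 19 B cell markers were measured and none was 2-fold apart. The ratio was under 0 in 15 of them and above 0 in 4, with a median of -0.12. Cd79a had 463 and 477 CPM, Ms4a1 946 and 915 and Pax5 140 and 144; the range was from -0.66 for Cd79b, the signalling partner of the antigen receptor, to 0.28 for Ebf1. Their summed level was 18131 CPM in ΔleftPAL and 16197 CPM in ΔIRIS cells. B cell receptor signalling genes had a median of -0.03.

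B cell subsets differed modestly. Marginal zone markers were under 0 in 10 of 13, with a median of -0.47. Cr2, the complement receptor CD21, was at 798 and 515 CPM (-0.63) and Cd1d1 at 60.4 and 39.4 (-0.62). S1pr3 alone was 2-fold lower, beside 1.08% of all genes, while Cd9 was higher, at 18.3 and 29.0 CPM (0.66). Follicular markers were under 0 in 8 of 10, with a median of -0.23, among them Cxcr5 and S1pr4 (49.7 and 32.5 CPM, -0.61). The members above 0 were Fcer2a, CD23, at 258 and 281 CPM (0.12), and Ccr7, the only one 2-fold apart, beside 2.04% of all genes. All 8 measured transitional and immature B cell genes were above 0, with a median of 0.65. Cd93, the marker AA4.1, had 567 and 1242 reads (0.88), Myb 334 and 772 (0.96) and Rag1, a subunit of the V(D)J recombinase, 34 and 112 (1.47); the recombinase partner Rag2 had 0 and 1 reads and the surrogate light chain gene Igll1 0 and 0. On TPM + 0.5 Rag1 was at 0.66, under 2-fold.

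Plasma cell genes were mixed, with a median of 0.08 over 14 genes. Irf4 was higher, at 285 and 604 CPM (1.08), Prdm1 had 111 and 210 reads (0.67), and Xbp1 was at 61.9 and 64.4 CPM (0.06). Memory and age-associated genes had a median of 0.14, with Tbx21 lower (111 and 56 reads, -1.24) and Bhlhe41 higher (491 and 1467, 1.33; 0.85 on TPM + 0.5). The B1 cell list had a median of 0.16.

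Traces of other cells differed between the libraries, and their part in the results above was not tested. Of 23 T cell markers, 10 reached the minimum of 50 counts, with a median of -0.69. The summed level of all 23 was 83.0 CPM in ΔleftPAL and 61.6 CPM in ΔIRIS cells. The defining receptor genes were low and lower in ΔIRIS cells: Trbc2 had 90 and 32 reads (-1.74), Cd3g 50 and 11 (-2.44), Cd3d 47 and 18 (-1.64) and Trac 44 and 4 (-3.71). Cd4 (273 and 496 reads), Cd8a (84 and 202) and Ctla4 (29 and 100) went the other way.

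Myeloid lineages were split too. The minimum was reached by 3 of 17 neutrophil genes. S100a9 (128 and 24 reads, -2.67) and S100a8 (86 and 20, -2.36) were lower, while Ly6g had 1 and 0 reads. Of 23 macrophage and monocyte genes 17 were above 0, with a median of 0.29 and sums of 1320 and 1686 CPM. Csf1r, the receptor of macrophage colony-stimulating factor, had 4127 and 6532 reads (0.41), Vcam1 4752 and 7667 (0.44) and Marco, a scavenger receptor of marginal zone macrophages, 133 and 324 (1.03). The monocyte genes Ly6c2 (337 and 107 reads, -1.91) and Ccr2 (169 and 128, -0.65) were lower, and Ly6c2 is also known to be raised by interferon. Outside the list, C4b, a complement component, had 320 and 58 reads (-2.72; -1.71 on TPM + 0.5 against -2.45 on CPM + 0.5), and Fn1, fibronectin, 356 and 125 (-1.76; -1.05 on TPM + 0.5 against -1.65 on CPM + 0.5). Cd163, a haemoglobin scavenger receptor of macrophages, had 335 and 909 reads (1.19) and Mmp12, the macrophage elastase, 204 and 709 (1.55). The choice of Fn1, Cd163 and Mmp12 was made with their values known. Cd163 on TPM + 0.5 (0.96) and Mmp12 with kallisto estimated counts (0.91) came under 2-fold.

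Dendritic cell markers were above 0 in 8 of 10, with sums of 211 and 282 CPM. Xcr1 had 68 and 236 reads (1.54) and Clec9a 82 and 211 (1.11), both of cross-presenting dendritic cells. With kallisto estimated counts Xcr1 was at 0.67, under 2-fold, against 1.39 on CPM + 0.5. Platelet markers were above 0 in all 12 genes of the table, of which 5 reached the minimum and 3 were at least 2-fold higher, beside 2.04% of all genes: Ppbp had 103 and 407 reads (1.73), Itga2b 134 and 369 (1.21) and Pf4 29 and 103 (1.58). On TPM + 0.5 Itga2b was at 0.28. Their sums were 37.1 and 74.99 CPM. Of 13 NK cell genes 9 were lower, and the 8 under the minimum summed to 163 and 72 reads (-1.43), among them Gzma with 48 and 13 and Nkg7 with 26 and 8. The sums of all 13 were close, at 30.5 and 30.3 CPM, with Ccl5, a chemokine that T cells also make, higher at 5.40 and 13.2 CPM. Of 16 genes of endothelium and stroma and 11 of mast cells, basophils and eosinophils, 2 each reached it, none of them 2-fold apart.

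Erythroid genes were split. The 4 globin genes were lower in ΔIRIS cells, Hba-a1 from 13883 to 9028 CPM (-0.62) and Hbb-bs from 19627 to 14156 CPM (-0.47), and globins took 4.2% of counts in ΔleftPAL and 2.84% in ΔIRIS cells. Of the other 16 erythroid genes 15 were above 0, with a median of 0.76: Slc4a1, the anion exchanger of red cells, had 5718 and 12817 reads (0.91), Gata1 47 and 119 (1.09) and Tfrc 2583 and 5432 (0.82). Alas2 was the exception (-0.21). The 4 measured Y-linked genes, present in both pools, were between -0.28 and 0.52.

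**Figure D4:**
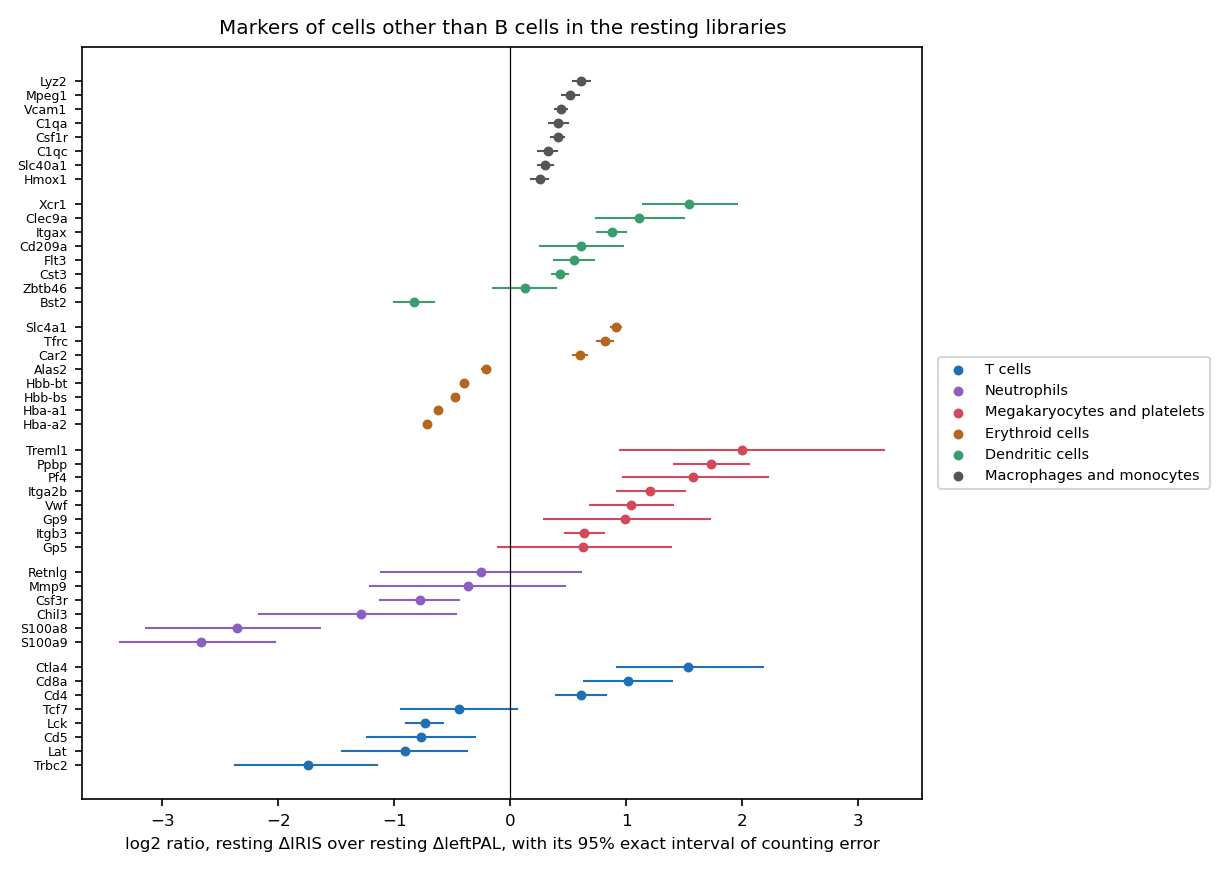
Log2 ratio of ΔIRIS over ΔleftPAL (horizontal axis) with its exact 95% interval of counting error for markers of 6 other cell classes, the 8 with the most reads in each, of those with at least 50 reads in all. Platelet markers sit above 0 and neutrophil markers below, T cell markers lie below except Cd4, Cd8a and Ctla4, and globins lie opposite to the other erythroid genes except Alas2.

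Predicted gene models held 48 of the 231 higher and 26 of the 122 lower genes, and some of the largest ratios. These were 4.81% and 2.61% of the 997 predicted models tested, beside 2.04% and 1.08% of all genes. Gm10800, at chr2:98666547-98667301, had 248 and 3244 reads (3.46) and the neighbouring Gm10801 56 and 490 (2.88). Gm26870, at chr9:3000282-3038313, had 557 and 4970 reads (2.91) and Gm21738 on chromosome 14 had 23 and 248 (3.18). Models of this kind can share reads with near-identical copies, so each value is uncertain. A list of 11 models at or near the places on chromosomes 2 and 9, drawn up after their values were seen, had 6 that reached the minimum, all of them 2-fold higher at rest and lower in the LPS pair, with medians of 2.56 and -1.56. Gm12191, a processed pseudogene on chromosome 11, had 818 and 324 reads (-1.59). Of 236 processed pseudogenes 17 were at least 2-fold higher and 8 at least 2-fold lower, and of 10335 protein-coding genes 189 and 83.

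The comparison after LPS gives the same genotypes in other libraries. By the study's methods, cells were taken from the mice before and after culture, so both pairs may share mice. Agreement between the pairs may therefore not be a repeat in separate animals. The minimum was reached in both pairs by 10294 genes, among them 143 of the resting 2-fold higher and 87 of the 2-fold lower genes. Of all of them, 9 were 2-fold higher in both pairs (0.0874% of genes) and 14 were 2-fold lower in both (0.136%), while 13 were 2-fold apart in opposite directions (0.126%). In the LPS pair, 122 of the 143 and 72 of the 87 were within 2-fold, with medians of -0.00 and -0.18.

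Most of the genes 2-fold apart in the same direction in both pairs are gene models or members of clustered families. Gm11942, a processed pseudogene model at chr4:32964888-32965232, had 498 and 6 reads at rest and 2444 and 25 after LPS (-6.63 and -6.73); kallisto assigned it 3.01 and 0 estimated counts at rest, too few for a ratio. Pydc3, of the interferon-inducible 200 family on chromosome 1, had 285 and 89 reads at rest (-1.93) and 134 and 13 after LPS (-3.49). Its resting ratio was -1.18 on TPM + 0.5, against -1.77 on CPM + 0.5. Its neighbour BC094916 had 1375 and 768, and 419 and 176 reads (-1.09 and -1.37). BC018473 was at -1.51 and -3.39, and Hist1h4i at -1.17 and -1.36.

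Among protein-coding genes with other roles, Ackr3, the scavenger receptor of Cxcl12, had 365 and 187 reads at rest (-1.22) and 110 and 30 after LPS (-1.996). Xaf1, an interferon-induced binding partner of the apoptosis inhibitor Xiap, was at -1.16 and -1.26. Il9r, the interleukin 9 receptor, and Rhbdf1, an inactive rhomboid, lie close together at chr11:32187541-32200279 and chr11:32209585-32222300. Il9r had 1743 and 972 reads at rest (-1.09) and 473 and 165 after LPS (-1.64), and Rhbdf1 199 and 95 (-1.32), then 108 and 47 (-1.32); Snrnp25 between them was at -0.44 and -0.31.

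The 9 genes that were 2-fold higher in both pairs were Rny3, Gpr137b-ps and 7 predicted models, 3 of them annotated as pseudogenes. Gm24105 had 50 and 731 reads at rest (3.62) and 57 and 280 after LPS (2.17). Gm26461 had 2273 and 8949 (1.73), then 2098 and 5598 (1.29). Gpr137b-ps had 146 and 545 (1.65), then 29 and 135 (2.10), and Rny3, a Y RNA, 32 and 113 (1.57), then 44 and 179 (1.90). Rpl30-ps9, lower in both pairs with 935 and 337 reads at rest (-1.72), was assigned essentially no reads by kallisto in either library, and Gm11759, higher with 17 and 87 reads (1.55 on CPM + 0.5), 1 estimated count in each, so neither could be compared there. The others of the 9 were Gm24276, Gm13340, Gm13215 and Gm26035, at 2.14, 1.81, 1.35 and 1.24 on the scale of CPM + 0.5 at rest. By kallisto Gm13215 had 0 estimated counts in both resting libraries and Gm13340 6.04 and 14.2.

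**Figure D5:**
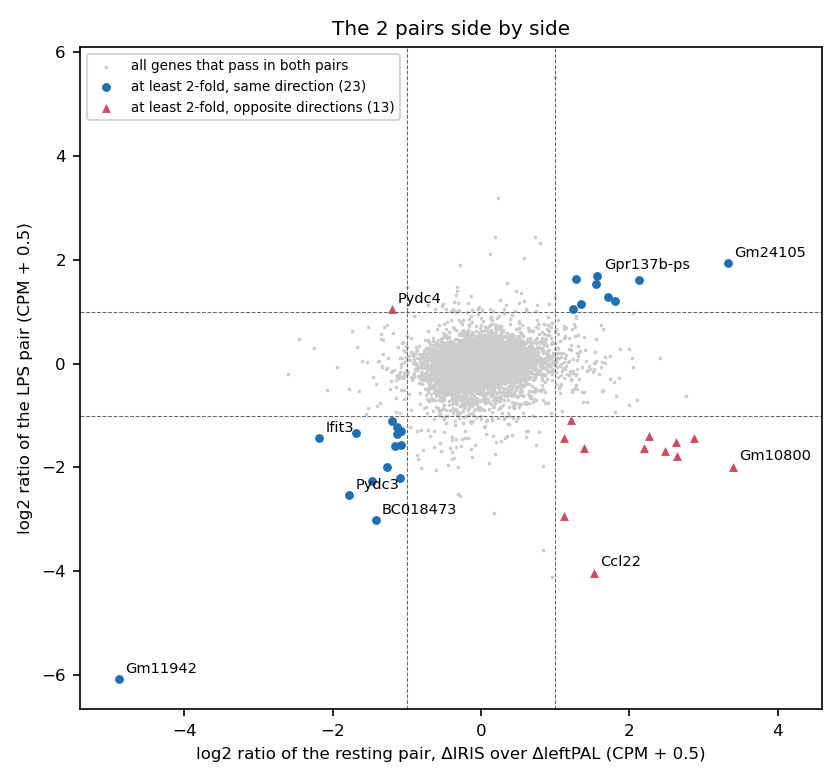
Log2 ratio of ΔIRIS over ΔleftPAL in the resting pair (horizontal axis) and in the LPS pair (vertical axis) of 10294 genes, both on CPM + 0.5, with dashed lines at 2-fold. The 23 genes 2-fold apart in the same direction are blue circles, among them Gm11942 far at the lower left, and the 13 in opposite directions are red triangles.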

How the data were processed

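Total RNA of splenic B cells was sequenced after depletion of ribosomal RNA, as stranded paired reads. The authors mapped reads to mm10 with STAR 2.4.0a and deposited counts per gene name from featureCounts (Subread 1.4.6-p1), unnormalized, with multi-mapping reads counted at their primary position. The authors also deposited kallisto 0.42.3 estimated counts for 88198 transcripts and TPM values, which are scaled within each library; tool versions come from the submitters' processing notes, and the kallisto index is not given in the sources used here. In the TPM table the annotation columns are shifted, so rows were read by transcript identifier and summed per gene. A count row names no gene (0.0264% of counts in resting ΔleftPAL and 0.0158% in resting ΔIRIS cells) and was left out.

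Counts were scaled with TMM factors (edgeR 4.0.16, R 4.3.3), and ratios, intervals and figures were made in Python 3.11.15 with numpy 2.4.6, pandas 2.3.3, scipy 1.17.1 and matplotlib 3.10.9. With 1 library per group no spread could be estimated; the quasi-likelihood test of edgeR was therefore left out and no p-value is given. Called means at least 2-fold apart by log2(CPM + 0.5), at a mean of 50 counts or more in the pair. The procedure was run on simulated counts that held counting error alone. They had no spread between mice, so that run checks the calculation and not the error between animals. Other settings tried were size factors of DESeq2 1.42.0, total counts, TMM without immunoglobulin genes, kallisto estimated counts and TPM, a minimum of 10, 200 or none, a prior of 5 CPM and omission of immunoglobulin genes. Named genes are the 12 furthest apart in each direction, 5 predicted models in each direction, members of the gene lists, and up to 12 genes in each direction that are 2-fold apart in both pairs; immunoglobulin variable segments enter only by the last rule. Ly6a, Ifi27l2a, Fn1, Cd163, Mmp12, Il9r and Snrnp25 lie outside these rules and were chosen after their values were seen. Some genes taken by these rules are not reported here, and Ighd was not analysed here. Promoters are RefSeq windows of 250 bases on GRCm38.p6. The gene lists and the genes named were chosen with earlier results of these data known, and 9 lists were added after their values were seen.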

Additional observations from a re-analysis of the deposited data

Results flagged for a closer look

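In 13 genes, of which 12 are given here, the resting pair and the LPS pair were at least 2-fold apart in opposite directions. Each pair holds 1 library per genotype, so the difference between the pairs was not tested. The values are the log2 ratio of ΔIRIS over ΔleftPAL at rest minus that after LPS, on the scale of CPM + 0.5.

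Pydc4, of the interferon-inducible 200 family, was the gene that was lower at rest and higher after LPS (-2.25), with 3167 and 1630 reads in resting and 200 and 465 in LPS-activated ΔleftPAL and ΔIRIS cells. The others given here went the other way. Ccl22, a chemokine of dendritic and activated B cells, had 20 and 96 reads at rest and 4085 and 259 after LPS (5.55). Ccl5, a chemokine for T cells, had 132 and 385, then 132 and 60 (2.30). Fscn1, the actin bundler fascin of mature dendritic cells, had 121 and 402, then 292 and 93 (3.02). Apol7c, an apolipoprotein L gene, had 328 and 866, then 197 and 70 (2.56).

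The remaining 7 are predicted gene models. Gm10800 differed by 5.38, Gm21738 by 4.43, Gm26870 by 4.30, Gm10722 by 4.16, Gm10801 by 4.14, Gm10718 by 3.82 and Gm11168 by 3.66.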

How the results depend on the processing

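No paired analysis was possible because each group holds 1 library. At this depth 3 reads correspond to about 0.1 CPM, so genes under the minimum of 50 reads were not called. The 353 genes 2-fold apart (231 higher and 122 lower) became 199 with a minimum of 200 (136 and 63), which tests fewer genes, 479 with a minimum of 10 and 486 with none, which test more, and 128 with a prior of 5 CPM (91 and 37). Genes apart in the same direction in both pairs numbered 23, against 15 with kallisto estimated counts and 13 with a minimum of 200. Higher genes made 65.4% of calls, against 63.3% with kallisto estimated counts (207 and 120) and 55.1% by TPM (161 and 131). Gm11759 reversed to -0.019 with estimated counts and -0.081 with TPM, where kallisto assigned it about 1 read in each library, so that no ratio was measured. With estimated counts the medians of mast cells, basophils and eosinophils (-0.11) and of endothelium and stroma (-0.10) reversed, as another gene, Ms4a2 or Clec4g, reached the minimum beside the 2 of each list; over the same 2 genes they were 0.37 and 0.16. The median of NK cell genes, 0.02, was -0.55 with a minimum of 10, which took in 9 genes in place of 5, and that of B cell receptor signalling, -0.03, lay between -0.09 and 0.00. Over the alternatives the median of interferon-stimulated genes stayed between -1.15 and -0.92, that of immediate early genes between 0.40 and 0.51, of platelet markers between 0.54 and 1.16 and of T cell markers between -0.80 and -0.28; that of neutrophil markers lay between -2.30 and -0.58. Of the 2-fold genes named, the following came under 2-fold in a kallisto table, with the ratio nearest to 0 in brackets: Epha2 (0.94), Nr4a2 (0.92), Gla (0.69), Itga2b (0.28), Xcr1 (0.54), Rag1 (0.66), Bhlhe40 (0.66), Bhlhe41 (0.85), Mmp12 (0.91), Cd163 (0.96), Cmbl (0.77), Isg15 (-0.96), BC094916 (-0.86), Tbx21 (-0.98), S1pr3 (-0.998), Noxred1 (-0.95) and Gm13340 (0.37, on 6.04 and 14.2 estimated counts). Gm11942, Rpl30-ps9 and Gm13215 had 0 to 3.01 estimated counts and were not comparable there. Over all alternatives run, single ratios stayed near their counting interval in 213 instances and moved beyond it in 22, and list medians moved by under 0.1 in 227 and by more in 47, besides the 2 reversals.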

Other observations

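Gene groups drawn up after the values were seen are given here as descriptions. Of 15 measured clock genes, 6 were at least 2-fold higher in resting ΔIRIS cells, beside 2.04% of all genes, and none lower, with a median of 0.65. Ciart, a repressor of the clock, had 605 and 1928 reads in ΔleftPAL and ΔIRIS cells (1.42), Bhlhe40 3033 and 8822 (1.29; 0.66 on TPM + 0.5) and Nr1d2, a nuclear receptor of the clock, 722 and 1900 (1.14). Nfil3 had 70 and 297 reads (1.83). The core activator Arntl was at -0.08 and Dbp at -0.07, and Per3 was lower (-0.89). The time of day of sampling was not given in the sources used here.

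Of 8 measured genes induced by glucocorticoid, 2 were at least 2-fold higher, beside 2.04% of all genes here and in the next lists, with a median of 0.82. Pik3ip1, which restrains PI3K, had 839 and 2933 reads (1.55), and Klf9 150 and 441 (1.30), while Fkbp5 was at -0.31. Of 12 measured hypoxia genes 3 were 2-fold higher, Vegfa, Adm (30 and 162 reads, 2.18) and Hilpda (265 and 739, 1.23), with a median of 0.31. Of 9 phosphatases of MAP kinases, 7 were higher and 4 of them at least 2-fold, among them Dusp4 (520 and 2232 reads, 1.85) and Dusp10 (522 and 1516, 1.29), with a median of 0.37.

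Genes known from mature dendritic cells had 5 of 9 members 2-fold higher, beside 2.04% of all genes, with a median of 1.12, among them Ccr7, Il12b (15 and 93 reads, 2.38) and Fscn1 (121 and 402, 1.48). In the LPS pair the median was -0.98, and 4 of the 8 that reached the minimum there too were 2-fold lower, beside 1.1% of genes. In the 200 family of interferon-inducible genes on chromosome 1, 9 of 12 measured were lower and 3 of them at least 2-fold, beside 1.08% of all genes, Pydc3, Pydc4 (3167 and 1630 reads, -1.21) and BC094916, with a median of -0.19, and Ifi205 was at 1.04.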
